A study of Mus musculus with 48 samples.

Results

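The 6 mouse genes *Dpt*, *Msln*, *Fam180a*, *Upk3b*, *Gpm6a* and *Clec3b* are described here, out of 46517 genes counted, across livers, hepatocyte preparations, in vitro spheroids, naïve irises and explants. They were proposed together as genes of the liver capsule and portal fibroblasts and were, as far as can be told, chosen by their measured levels in hepatocyte preparations, where several were near 0, and in livers. The levels in those 2 groups are therefore given as a description without a test. The question behind the series was how far liver spheroids grown from hepatocyte-enriched cells and placed in the anterior chamber of the eye (ACE) resemble liver, and bulk RNA was sequenced from each tissue and from the steps that lead to the graft.

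The labels give all samples the strain C57BL/6N and the genotype WT Albino, while the study's methods speak of adult mice of both sexes and of other albino strains. Livers (n = 3) were whole tissue from donor mice. Hepatocyte preparations (n = 3) were primary liver cells released by collagenase perfusion and enriched on Percoll, a step that discards most non-parenchymal cells. In vitro spheroids (n = 2) were aggregates of such cells kept in culture. Irises (n = 3) came from eyes without a graft. Explants (n = 5, numbered 1, 2, 4, 5 and 6) were dissected 2 months post-tx (after transplantation) and hold the engrafted spheroid together with the iris around it, although their labels name only the hepatocyte as cell type. The labels number the samples without tying them to animals, so that p-values measure the spread between these samples. Each sample is the sum of 3 technical libraries, with 2718518 to 6789648 counts in total.

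The liver is wrapped in Glisson's capsule, a sheet of collagen covered by mesothelium, the flat epithelium that lines body cavities. Portal fibroblasts sit around the bile ducts and vessels of the portal tracts and deposit matrix there. Both are separate from hepatocytes and from stellate cells, the vitamin A storing cells along the sinusoids, and fibroblasts of other organs share many of their genes.

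Of the 6 genes, *Dpt* encodes dermatopontin, a small matrix protein that binds decorin and marks fibroblasts of many tissues. *Clec3b* encodes tetranectin, a C-type lectin that binds plasminogen. *Msln* encodes mesothelin, a lipid-anchored glycoprotein on the surface of mesothelial cells. *Upk3b* encodes uroplakin 3B, a membrane protein of urothelium and mesothelium, and *Gpm6a* encodes a membrane glycoprotein of the proteolipid family that is best known from neurons. The members were located by the exon annotation used for the counts (mm10). *Dpt* lies at chr1:164796644-164824266 on the plus strand and has 1724 exonic bases. *Clec3b* is at chr9:123150946-123157430 on the plus strand, with 990 exonic bases. *Msln* spans chr17:25748614-25754327 on the minus strand, with 2114 exonic bases. *Upk3b* occupies chr5:136038496-136046487 on the plus strand, with 3530 exonic bases. *Gpm6a* covers chr8:54954728-55060877 on the plus strand, with 3336 exonic bases. *Fam180a*, a little characterised gene, stands at chr6:35312668-35326141 on the minus strand, with 1606 exonic bases. All 6 are protein-coding, and none shared exonic bases with another annotated gene.

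Start regions were available for 4 of the 6 genes from RefSeq (build GRCm38.p6), and the 250 bases before the start are shown for them because the genes follow different patterns over the same tissues. *Dpt* and *Fam180a* were highest in liver, *Upk3b* was highest in liver with a lower level in iris, and *Gpm6a* was highest in iris. Capitals mark matches on either strand to the TATA box TATAAA, the CCAAT box CCAAT, the GC box GGGCGG, the TEAD motif GGAATG, the AP-1 motif TGANTCA or the E-box CANNTG. The windows are chr1:164796413-164796662 (plus strand) for *Dpt*, chr6:35326142-35326391 (minus strand) for *Fam180a*, chr5:136038246-136038495 (plus strand) for *Upk3b* and chr8:54954478-54954727 (plus strand) for *Gpm6a*.
Dpt: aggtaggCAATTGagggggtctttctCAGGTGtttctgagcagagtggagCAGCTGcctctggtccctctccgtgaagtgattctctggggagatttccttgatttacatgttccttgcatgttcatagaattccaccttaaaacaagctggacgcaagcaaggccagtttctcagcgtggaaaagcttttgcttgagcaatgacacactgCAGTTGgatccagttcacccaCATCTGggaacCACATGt
Fam180a: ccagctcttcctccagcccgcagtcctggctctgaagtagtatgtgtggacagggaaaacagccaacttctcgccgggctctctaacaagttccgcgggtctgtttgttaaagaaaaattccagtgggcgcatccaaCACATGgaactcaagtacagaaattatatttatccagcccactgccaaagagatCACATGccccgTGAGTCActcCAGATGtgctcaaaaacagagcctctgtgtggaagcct
Upk3b: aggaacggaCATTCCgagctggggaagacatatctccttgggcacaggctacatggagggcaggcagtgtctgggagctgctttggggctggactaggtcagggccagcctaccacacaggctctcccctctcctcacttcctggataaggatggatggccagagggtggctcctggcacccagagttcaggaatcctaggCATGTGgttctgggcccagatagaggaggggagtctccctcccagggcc
Gpm6a: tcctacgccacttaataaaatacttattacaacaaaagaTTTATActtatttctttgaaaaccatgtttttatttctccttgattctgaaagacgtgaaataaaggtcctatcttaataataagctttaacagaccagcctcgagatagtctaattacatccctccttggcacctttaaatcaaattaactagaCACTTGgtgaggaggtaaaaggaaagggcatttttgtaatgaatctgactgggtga
The window of *Dpt* held 6 E-boxes and no match to the other 5 motifs. Its RefSeq start lies inside the gene as counted, so that the last 19 bases of the window, with 2 of the E-boxes, belong to the counted gene. As many E-boxes or more were found in 0.274% of all 32851 windows of this length. *Fam180a* had 3 E-boxes, a number that 12.2% of windows reach, and 1 AP-1 match at 48 to 42 bases before the start (6.75% of windows hold one). *Upk3b* had 1 E-box (66.2% of windows hold one or more) and 1 match to the TEAD motif (12.6% of windows). *Gpm6a*, read at the start that the count annotation uses, had 1 E-box and 1 TATA box match (12.4% of windows), the latter at 211 to 206 bases before the start. A second *Gpm6a* start in the table, further upstream, is not shown. The GC content was 48.8% for *Dpt*, 50.4% for *Fam180a*, 60.8% for *Upk3b* and 33.6% for *Gpm6a*, beside a median of 52.4% over all windows. A match of letters is a description of the sequence and says nothing of a factor bound there.

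Levels are given as TPM, counts scaled by exonic length and by library, calculated by the authors, so that levels of different genes can be set side by side. *Dpt* was at 139, 18.8 and 13.4 TPM in livers 1, 2 and 3. It was at 0.812, 0 and 1.04 TPM in hepatocyte preparations 1, 2 and 3, and at 0 in both in vitro spheroid samples. The irises had 1.04, 0 and 0.352 TPM, and explants 1, 2, 4, 5 and 6 had 8.53, 20.2, 7.08, 3.73 and 28.8 TPM. Livers and explants overlapped and stood above all other samples, and the low values of hepatocyte preparations, irises and spheroids overlapped with each other or rested on 3 counts or fewer per sample.

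*Fam180a* followed the same order in liver and explants. The livers had 59.9, 10.1 and 11.1 TPM, and all 3 hepatocyte preparations had 0. The in vitro spheroids had 1.42 and 1.503 TPM, which are 3 counts each, and the irises had 1.12, 1.60 and 2.64 TPM. In explants 1, 2, 4, 5 and 6 it was at 1.02, 7.65, 5.77, 5.87 and 18.5 TPM. Explant 1 lay below every iris and the other 4 explants above every iris, while the spheroid and iris values overlapped.

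*Msln* was seen almost only in livers, at 22.7, 3.33 and 14.7 TPM. The hepatocyte preparations held 1 count of the gene in all, as did the irises, and the in vitro spheroids held 0. Explant 6 had 4.75 TPM (21 counts), explants 1 and 4 had 0.773 and 0.692 TPM (3 counts each), and explants 2 and 5 had 0. Explant 6 overlapped with the lowest liver, and the other explants were within a few counts of irises and hepatocyte preparations.

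*Upk3b*, like *Msln* a gene of mesothelium, was at 17.2, 0.798 and 8.03 TPM in livers 1, 2 and 3. It had 0 counts in all hepatocyte preparations and all in vitro spheroids. The irises had 1.36, 2.73 and 2.06 TPM, so that liver 2 was below every iris and the 2 groups overlapped. Explants 1, 2, 4, 5 and 6 had 0, 0.290, 4.15, 0.364 and 1.76 TPM, with explant 4 above the irises and explants 1, 2 and 5 below them.

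*Gpm6a*, assigned here to mesothelium together with *Msln* and *Upk3b*, differed from both in having its highest level in iris. The irises had 498, 529 and 482 TPM and explants 1, 2, 4, 5 and 6 had 442, 369, 443, 384 and 278 TPM, without overlap. The livers had 17.96, 8.86 and 15.02 TPM, the hepatocyte preparations 5.46, 5.96 and 5.66 TPM, and the in vitro spheroids 4.10 TPM in each. No 2 neighbours in this order overlapped. Of all genes tested, 14.1% had all explants below all irises and 22.5% had all hepatocyte preparations below all livers. The shares for the other steps are not given here. The last step rests on 26, 25 and 21 counts in hepatocyte preparations against 18 and 17 in spheroids. A list of 10 nerve and Schwann cell genes summed to 129.5 to 233 TPM in irises, 71.9 to 135 in explants and 1.81 to 3.59 in livers, and its part in the level of *Gpm6a* was not tested. At up to 0.907 counts per exonic base, in explant 4, *Gpm6a* was also far denser than the other 5 genes, whose highest value was 0.200 counts per base (*Dpt* in liver 1). Duplicate reads had been removed before counting, and the effect of that step on the level of a dense gene was not tested.

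*Clec3b* was also an iris gene in these samples. The irises had 35.2, 35.01 and 41.1 TPM, and explants 1, 2, 4, 5 and 6 had 30.2, 20.2, 12.3, 11.7 and 24.2 TPM, all below the irises. The livers had 0.704, 1.42 and 0.666 TPM, which are 1, 2 and 1 counts. One count was found in hepatocyte preparation 1, and 0 in the other preparations and the spheroids, so that liver, hepatocyte preparations and spheroids cannot be ordered at this depth.

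**Figure D1:**
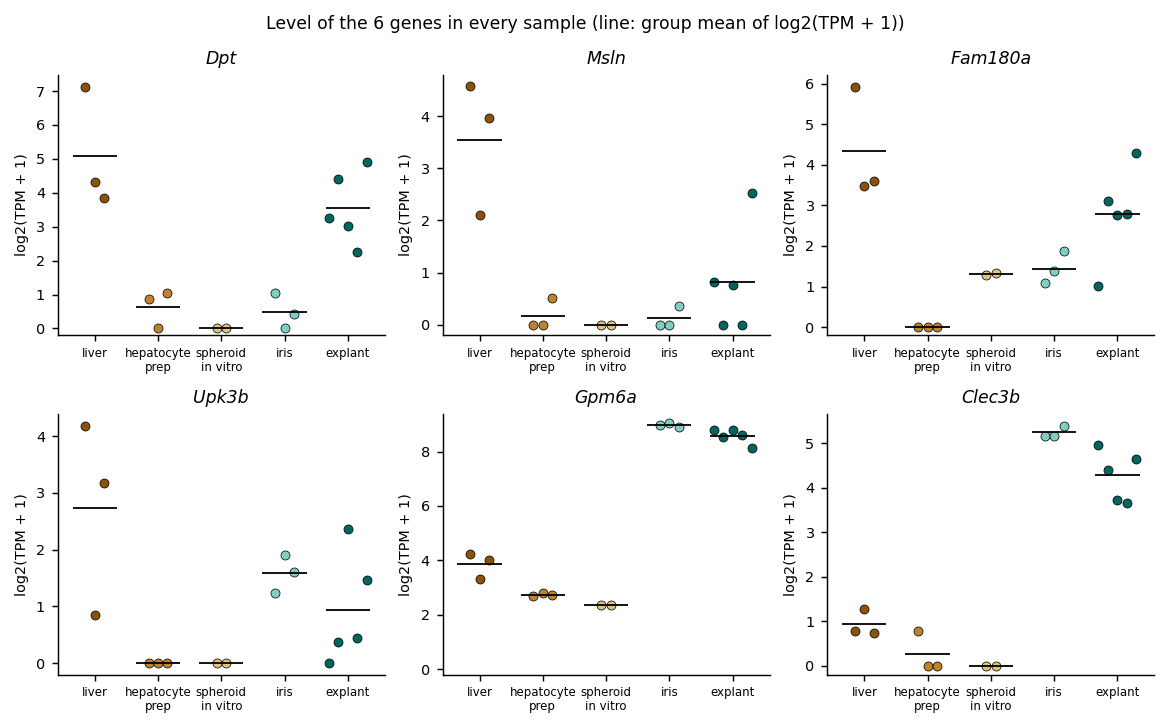
Level of each gene in every sample as log2(TPM + 1), with one point per sample and a line at the group mean, for 3 livers, 3 hepatocyte preparations, 2 in vitro spheroid samples, 3 irises and 5 explants. *Dpt*, *Fam180a*, *Msln* and *Upk3b* had their highest value in liver 1, the first point of the liver group, whereas *Gpm6a* and *Clec3b* were highest in the irises.

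Levels in whole liver were thus highest for 4 of the 6 genes, and which liver cells they came from was not tested. *Clec3b* was at 4 counts in 11089105 over the 3 livers, and whole liver had 0.0288 times its iris level (95% exact interval 0.00776 to 0.0750). *Gpm6a* in liver was at 0.0322 times the iris level (0.0279 to 0.0370). These intervals, like all that follow, are from pooled counts and cover counting error only. As a scale for such low levels, the 10 genes of an iris and pigment list, which includes *Pax6* and *Tyrp1*, were at a median of 1.91% of their iris level in livers (0.362% to 8.35%), 1.67% in hepatocyte preparations and 2.22% in in vitro spheroids. *Gpm6a* was at 2.77%, 1.13% and 0.816% of its iris level in those groups. In the reverse direction, 8 hepatocyte genes such as *Alb* and *Hnf4a* were at a median of 4.25% of their liver level in irises (0.788% to 25.2%), beside 0.816% for *Dpt*, 0.705% for *Msln*, 6.62% for *Fam180a* and 23.7% for *Upk3b*. Whether transcripts carried between libraries form part of any of these low levels was not tested.

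Hepatocyte preparations lay below livers in all samples for 5 of the 6 genes, with *Clec3b* the exception. That comparison, as far as can be told, chose the genes, and 22.5% of the 12236 genes tested in it had all hepatocyte preparations below all livers. *Dpt* was at 57.1 ± 71.0 TPM (SD, n = 3) in livers and 0.619 ± 0.548 (SD, n = 3) in hepatocyte preparations, and the pooled CPM (counts relative to the library total) differed 90.5-fold (35.1 to 334). *Msln* was at 13.6 ± 9.75 TPM in livers, and its ratio of 107 rests on 1 count in the hepatocyte preparations (18.9 to 4273). With 0 counts in the preparations, of 9446341 in all, and a floor of 3 counts over the group, *Fam180a* was at least 53.4-fold and *Upk3b* at least 38.1-fold higher in livers.

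*Gpm6a* differed far less, with 13.9 ± 4.64 TPM in livers, 5.69 ± 0.250 in hepatocyte preparations and a ratio of 2.41 (1.84 to 3.20). *Clec3b* gave a ratio of 3.41 from 4 counts against 1 (0.337 to 168). A filter on low counts passed 4 of the 6 genes in this comparison, *Upk3b* and *Clec3b* being left out. In these bulk samples, fewer cells of a type and less RNA per cell cannot be told apart.

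Liver 1 set much of the liver mean. Its level was 10.4 times that of the lowest liver for *Dpt*, 6.83 times for *Msln*, 5.94 times for *Fam180a* and 21.5 times for *Upk3b*. Without liver 1, a choice made after seeing the data, the ratio of livers to hepatocyte preparations was 25.9 for *Dpt* (9.72 to 97.2), 72.8 for *Msln* (12.6 to 2926) and 2.09 for *Gpm6a* (1.55 to 2.85). It was at least 21.3 for *Fam180a* and at least 20.01 for *Upk3b*. Livers 2 and 3 did not order the genes alike. Liver 2 was the higher in *Dpt*, and liver 3 had 4.40 times as much *Msln* and 10.1 times as much *Upk3b*.

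Other genes of the same cell types were counted from marker lists. The mesothelium list (10 genes found, among them *Wt1*, *Upk1b* and *Lrrn4*) summed to 113 TPM in liver 1 and to 32.5 and 47 TPM in livers 2 and 3. The general fibroblast list (14 genes such as *Col1a1*, *Dcn* and *Lum*) summed to 1425 TPM in liver 1, 515 in liver 2 and 592 in liver 3. The portal fibroblast list (10 genes such as *Thy1*, *Eln* and *Entpd2*) had 234, 136 and 157 TPM, the stellate cell list 580, 360 and 365 TPM, and the cholangiocyte list 589, 331 and 289.9 TPM. Liver 1 was the highest liver in these 5 lists as well as in 5 of the 6 genes. *Spp1*, the gene of osteopontin, made up most of the cholangiocyte sum, with 514, 298 and 263 TPM. For 8 hepatocyte genes liver 1 was also highest, but by a narrow margin, at 12449 TPM beside 11363 and 10991 TPM. It was the lowest liver in a list of 9 sinusoidal endothelium genes (316 TPM beside 379 and 439) and in a list of 7 Kupffer cell genes (274 TPM beside 301.5 and 418), Kupffer cells being the resident macrophages of liver. How far the values of liver 1 go with these lists was not tested.

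**Figure D2:**
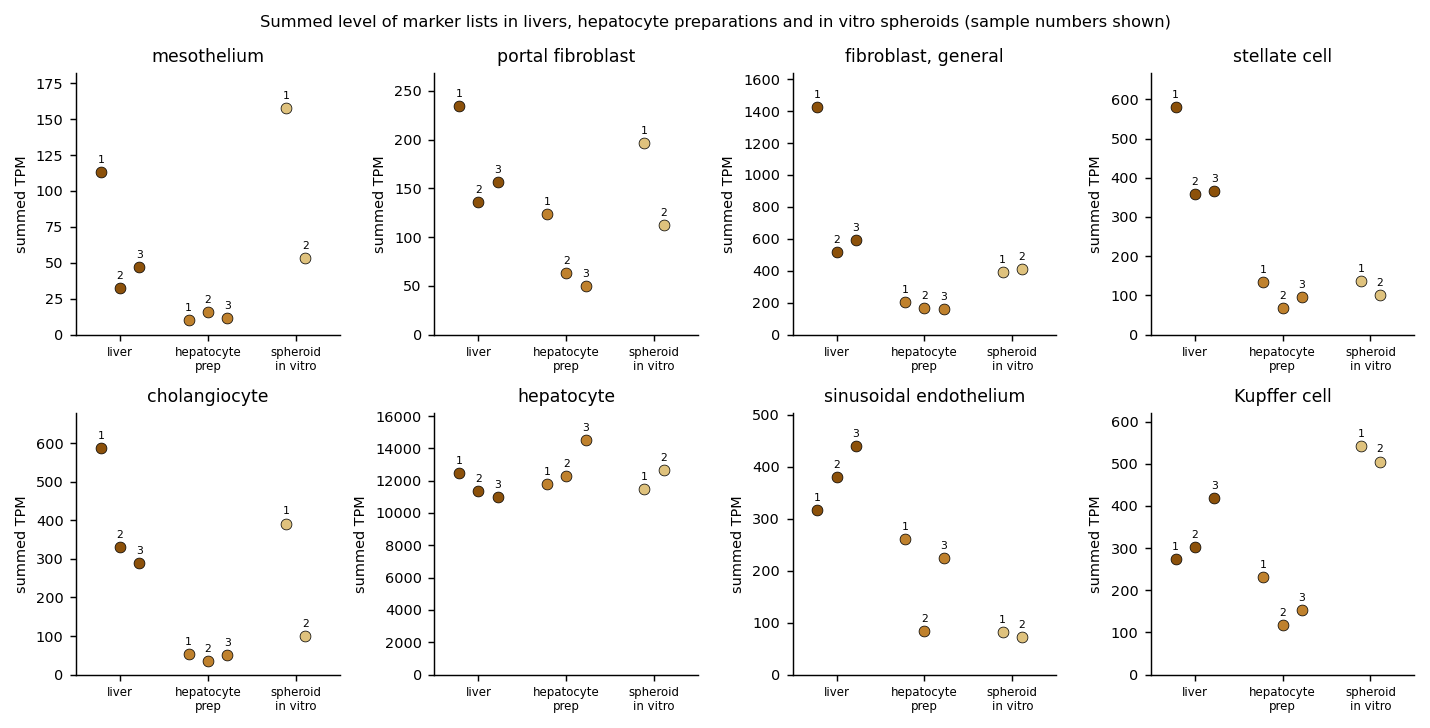
Summed TPM of 8 marker lists in each of 3 livers, 3 hepatocyte preparations and 2 in vitro spheroid samples, with one point per sample and the sample number above it. Liver 1 is the highest liver in 6 panels, with 1425 TPM of general fibroblast genes beside 515 and 592, and the lowest in the sinusoidal endothelium and Kupffer cell panels, and spheroid 1 is above spheroid 2 in the mesothelium and cholangiocyte panels.

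Between hepatocyte preparations and livers, 2.31% of all genes tested were called lower and 0.409% higher, where a call needs edgeR's quasi-likelihood test to give an adjusted p (Benjamini-Hochberg) under 0.05 together with a log2 fold change beyond 1 in either direction. Of the mesothelium list, 2 of 4 genes past the filter were called lower. They were *Krt19*, an epithelial keratin that is also on the cholangiocyte list (log2 fold change −5.31, SE 0.84, adjusted p = 0.0310), and the protease inhibitor gene *Slpi* (−4.22, SE 0.70, adjusted p = 0.0332). Of the general fibroblast list, 6 of 12 were called lower, led by *Col1a2* (−4.08), *Smoc2* (−3.13), *Col3a1* (−3.10) and *Igfbp6* (−3.03), which encode fibrillar collagens, a matrix protein of the SPARC family and a binding protein of insulin-like growth factors. The list medians were −2.90 and −2.51 beside 0.01 over all genes. *Krt19*, *Slpi*, *Igfbp6* and *Col1a2*, with 1, 6, 10 and 17 counts over the preparations, passed the filter only through the livers and could not be called higher.

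The portal fibroblast list had a median of −1.002, and edgeR called 0 of its 5 tested genes, with 4 lower at an unadjusted p under 0.05. DESeq2 called 1 of them lower and limma-voom 0. The stellate cell list had 8 of 12 genes called lower, led by *Cygb* (−3.59), *Reln* (−2.92), *Pth1r* (−2.91) and *Colec11* (−2.72). *Pth1r* and *Cygb*, with 14 and 24 counts over the preparations, also passed the filter only through the livers and could not be called higher. No gene of these 4 lists was called higher by edgeR, DESeq2 or limma-voom, and 0 were higher at an unadjusted p under 0.05 in edgeR. The 8 genes of the first 3 lists that were called fell to 0 without hepatocyte preparation 2, hepatocyte preparation 3 or liver 2 and with limma-voom, to 5 without hepatocyte preparation 1 or liver 3, and to 7 without liver 1.

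In vitro spheroids and hepatocyte preparations were alike in lacking most of the 6 genes. Both groups had 0 counts of *Upk3b*, and *Dpt*, *Msln* and *Clec3b* went from 4, 1 and 1 counts in the 3 preparations to 0 in the 2 spheroid samples, of 6694970 counts, which allows up to 0.448 CPM of each. *Fam180a* had 6 counts in the spheroids and 0 in the preparations, at least 2.82-fold more. *Gpm6a* was at 0.686 times the hepatocyte level (0.444 to 1.04).

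Of the 6, only *Gpm6a* passed the filter in this comparison. Among the 12247 genes tested, 8.13% were called higher in spheroids than in hepatocyte preparations and 9.11% lower. Over the mesothelium, portal fibroblast and general fibroblast lists, 5 genes were called higher (1 of 2, 2 of 5 and 2 of 9 tested) and 0 lower. They were *Slpi* (93.0 ± 69.8 TPM in spheroids against 1.27 ± 0.957, log2 fold change 5.68, SE 0.64, adjusted p = 0.00121), the sialomucin gene *Cd34* (3.92), the ectonucleotidase gene *Entpd2* (1.97), the proteoglycan gene *Lum* (1.70) and *Smoc2* (1.69). *Slpi* and *Cd34*, with 6 and 10 counts over the preparations, passed the filter only through the spheroids and could not be called lower. *Slpi* and *Entpd2* varied widely between the 2 spheroid samples. In spheroids 1 and 2, *Slpi* was at 142 and 43.7 TPM, and the cholangiocyte list summed to 392 and 100.2 TPM, beside 35.8 to 52.0 TPM in the preparations. *Spp1* alone gave 350 and 92.3 TPM of this list in spheroids 1 and 2, and *Epcam*, *Krt7* and *Cftr* were each under 1 TPM in both. The rest of the list was *Tspan8* at 22.5 and 3.17 TPM, *Sox9* at 11.95 and 1.95, *Krt19* at 3.28 and 0, and *Pkhd1* at 3.03 and 1.74. Without spheroid 2, 3 of the list genes were called. *Lrrn4*, *Wt1*, *Rspo1* and *Aldh1a2* of the mesothelium list were at 0 in both spheroid samples. At an unadjusted p under 0.05 edgeR had 0 list genes lower, and DESeq2 and limma-voom called 0 lower.

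The explants were compared with naïve irises, which, as far as can be told, the choice of the genes had not used. Earlier results of these data were known at that choice, however, so the tests of the 6 genes may not be independent of it. *Dpt* was the only one of the 6 genes to be called. Its level of 8.25 ± 6.57 CPM (SD, n = 5) in explants stood against 0.274 ± 0.313 (SD, n = 3) in irises, and all 5 explants were above all irises, as was so for 11.2% of genes tested. The log2 fold change was 4.88 (SE 1.05, adjusted p = 0.0168 over 16764 genes, edgeR), and the ratio of pooled counts, 239 against 4, was 28.6 (11.04 to 106). In this comparison 6.16% of genes tested were called higher and 0.316% lower. The call rests on few iris counts, with 3, 0 and 1 in irises 1, 2 and 3. *Dpt* thus passed the low-count filter only through the explants and could not be called lower. The adjusted p was 0.0575, 0.0771 and 0.0845 without iris 1, 2 or 3, when fewer genes were called in all, and 0.0769 with limma-voom, while the log2 fold change stayed between 4.34 and 6.07 in these fits.

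*Fam180a* was at 4.37 ± 3.78 CPM in explants and 0.980 ± 0.431 in irises (log2 fold change 2.24, SE 0.83, adjusted p = 0.116), with 4 of 5 explants above every iris. It did not pass the test, but did so without explant 1 (2.52, adjusted p = 0.0295) and with DESeq2 (adjusted p = 0.0436). Its counts were 3, 4 and 7 in irises 1, 2 and 3, so it too passed the filter only through the explants. *Upk3b* was at 1.58 ± 2.04 CPM in explants and 2.46 ± 0.813 in irises, a log2 fold change of −0.53 with an SE of 0.91. *Msln*, with 27 counts over 5 explants and 1 over 3 irises, was left out by the low-count filter, and the ratio of its pooled counts was 12.95 (2.13 to 530). Of its explant counts, 21 of 27 were in explant 6.

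For the 2 genes of iris the explants were lower without passing the test. *Gpm6a* was at 439 ± 65.9 CPM in explants and 572 ± 24.3 in irises (log2 fold change −0.30, SE 0.10, adjusted p = 0.0766). *Clec3b* was at 6.74 ± 2.72 and 12.5 ± 1.22 CPM (−0.81, SE 0.32, adjusted p = 0.131). Neither gene overlapped between the groups, as was so for 14.1% of genes tested, and 5 of the 6 genes passed the filter.

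Few list genes were called beside *Dpt* at a log2 fold change beyond 1. Without that limit, 5 genes of the mesothelium, portal fibroblast and general fibroblast lists were higher in explants and 3 lower. Of the mesothelium list, 1 of 8 tested genes was called higher in explants than in irises. This was *Slpi*, at 36.2 ± 21.6 TPM in explants and 1.58 ± 0.580 in irises (log2 fold change 4.61, SE 0.84, adjusted p = 0.00839), and the list median was −0.21. In edgeR, 0 of 10 portal fibroblast genes (median 0.52) and 0 of 14 general fibroblast genes (median −0.07) were called, beside a median of 0.01 over all genes. At an unadjusted p under 0.05, 6 portal fibroblast genes were higher and 0 lower, and 3 general fibroblast genes were higher and 5 lower. DESeq2 and limma-voom called 0 in both lists. *Slpi* lost its call without iris 1, without iris 3 and with limma-voom. With 9 counts over the irises, it passed the filter only through the explants. Without explant 1, 4 or 5, 3, 4 and 3 list genes were called higher.

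Irises themselves were high in these lists. The general fibroblast list summed to 4354 to 4605 TPM in irises and 3481 to 4027 TPM in explants, beside 515 to 1425 TPM in livers. The mesothelium list summed to 732 to 765 TPM in irises, mostly from *Pdpn*, a mucin-type membrane protein, with 543 to 591 TPM. Among liver cell types outside these lists, 1 of 12 stellate cell genes was called higher in explants than in irises (*Colec11*, 2.73, adjusted p = 0.0364) and 3 of 8 cholangiocyte genes, namely *Tspan8* (4.49), *Pkhd1* (3.05) and *Epcam* (2.69). Of the Kupffer cell list 2 of 3 tested genes were called higher, *Cd5l* (5.10) and *Adgre1* (2.22), and of the sinusoidal endothelium list 2 of 7, *Dnase1l3* (2.98) and *Stab2* (1.24). *Cd5l*, *Tspan8*, *Pkhd1*, *Colec11*, *Dnase1l3* and *Epcam* had 3, 9, 13, 16, 18 and 20 counts over the irises. They passed the filter only through the explants and could not be called lower. The part of these liver cell types in the *Dpt* level of explants was not tested. All 8 hepatocyte genes were called higher, with a median of 3.62. Their sum was 10991 to 14528 TPM in livers, hepatocyte preparations and in vitro spheroids, 4793 to 6605 TPM in explants and 1387 to 1651 TPM in irises.

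**Figure D3:**
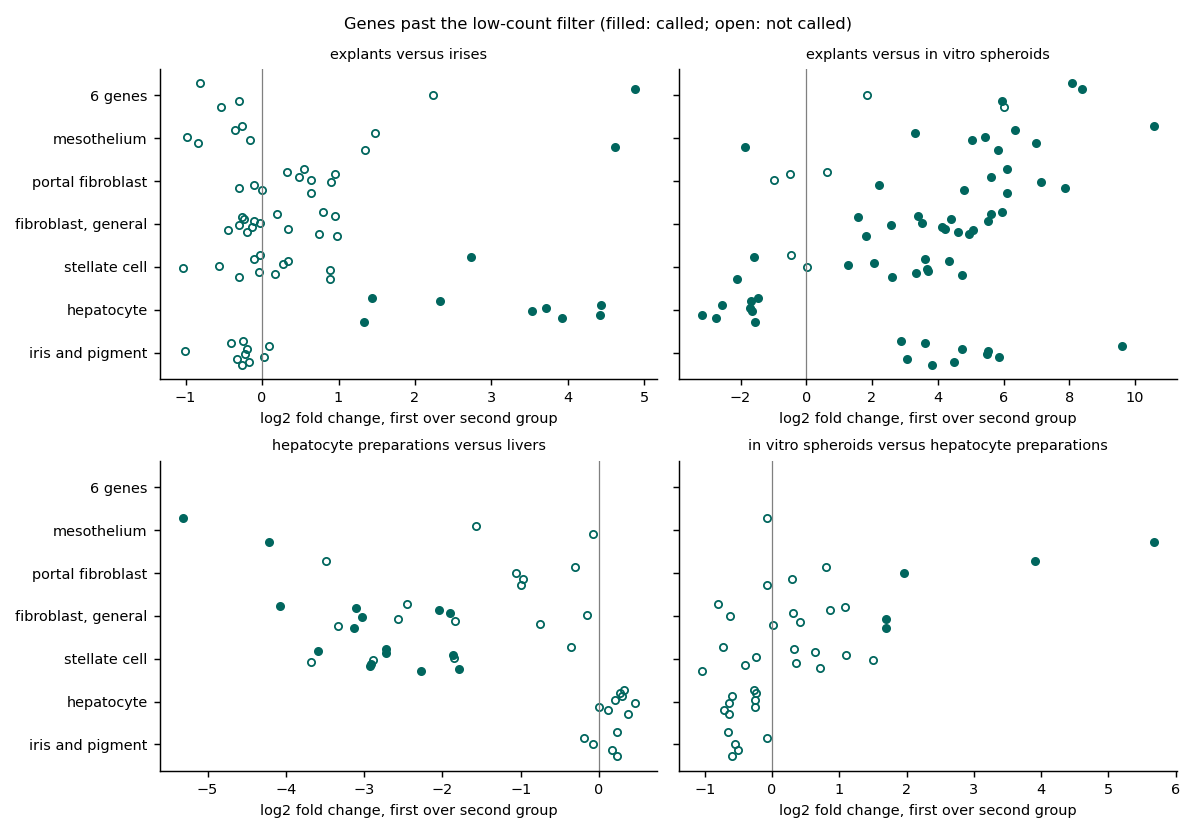
Log2 fold change from edgeR of genes past the low-count filter in 4 comparisons, with one point per gene, rows for the 6 genes and for 6 marker lists, filled points for called genes and open points for the rest. In explants versus irises *Dpt* is the filled point at 4.88 in the top row, and in the lower panels the 6 genes are left out because their choice, as far as can be told, used those samples.

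Explants were also compared with in vitro spheroids, the same kind of graft before transplantation, with the limit that explants hold iris. Of 17059 genes tested, 30.4% were called higher in explants and 15.5% lower. *Dpt*, *Gpm6a* and *Clec3b* were called higher, with 5 of 6 past the filter and *Msln* left out. *Dpt*, *Msln*, *Upk3b* and *Clec3b* had 0 counts in both spheroid samples, so that they could pass the filter only through the explants and could not be called lower. *Dpt* was at least 17.9-fold higher in explants when 3 counts over the spheroids are taken as the floor (edgeR adjusted p = 0.0144). The call was lost without spheroid 1 (adjusted p = 0.0710) or spheroid 2 (0.0626), when a single sample is left on that side and is assumed to vary like the explants. *Clec3b* was at least 14.7-fold higher by the same floor (adjusted p = 0.00121).

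*Gpm6a* rose from 5.23 ± 0.00998 CPM in spheroids (n = 2) to 439 ± 65.9 in explants, with a log2 fold change of 5.95 (SE 0.23, adjusted p = 4.94e-07). The 10 genes of the iris and pigment list were all called higher in the same comparison, with a median log2 fold change of 4.62. *Fam180a* had a log2 fold change of 1.85 (SE 1.12, adjusted p = 0.169), and was called without explant 1 (2.14, adjusted p = 0.0472). *Upk3b*, at 48 counts over the explants and 0 in the spheroids, was not called (adjusted p = 0.171). Of the lists, 7 of 8 mesothelium, 7 of 10 portal fibroblast and 14 of 14 general fibroblast genes were called higher, among them *Aldh1a2*, *Gli1* and *Col1a1*. In the mesothelium list 1 gene, *Slpi*, was called lower. *Aldh1a2*, *Rspo1* and *Gli1* had 0 counts over the spheroids, and *Bnc1*, *Nkain4*, *Thy1*, *Fbln2* and *Cd248* had 1 each. *Eln* and *Mfap5* had 2 each, *Upk1b* had 3 and *Pi16* had 4. Such genes passed the filter only through the explants and could not be called lower.

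Because an explant is part iris, its level was set beside mixes calculated from the other groups. The iris share used by the authors, solved here from their values before and after subtraction of iris, was 82%, 68%, 81%, 72% and 59% in explants 1, 2, 4, 5 and 6. Taken instead as the median, over 53 genes specific to iris, of the explant level divided by the iris level, it was 82.5%, 68.3%, 82.8%, 76.7% and 48.6%. A mix of iris and in vitro spheroid at the authors' share would hold 0.275 to 0.382 TPM of *Dpt*, whereas the explants held 3.73 to 28.8 TPM, all above the mix. A mix of iris and liver would hold 10.7, 18.6, 11.2, 16.3 and 23.7 TPM in explants 1, 2, 4, 5 and 6, and 2 of 5 explants, numbers 2 and 6, were above it. Liver 1 enters that mix with its high value. With livers 2 and 3 alone, a choice made after seeing the data, the mix would hold 3.28 to 6.87 TPM, and 4 of 5 explants, all but number 5, were above it.

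*Fam180a* was above the mix with spheroid (1.65 to 1.73 TPM) in 4 of 5 explants and above the mix with liver (6.33 to 12.1 TPM) in 1, explant 6. Without liver 1 the latter mix fell to 3.37 to 5.39 TPM, and 4 of 5 explants were above it. *Msln* was above the mix with spheroid in 3 of 5 explants and below the mix with liver in all 5. Without liver 1, explant 6 (4.75 TPM) was above the mix with liver (3.74 TPM) and the other 4 were below. *Upk3b* was above the mix with spheroid in 2 of 5 explants and above the mix with liver (3.24 to 4.76 TPM) in 1, explant 4, with or without liver 1. For *Gpm6a* both mixes lie close together, at 298 to 413 TPM with spheroid and 302 to 415 TPM with liver. At the authors' share, 4 of 5 explants were above both. *Clec3b* was above either mix in 1 of 5 explants and reached only 12.3 TPM in explant 4, where the mixes were at 30.03 and 30.2 TPM.

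**Figure D4:**
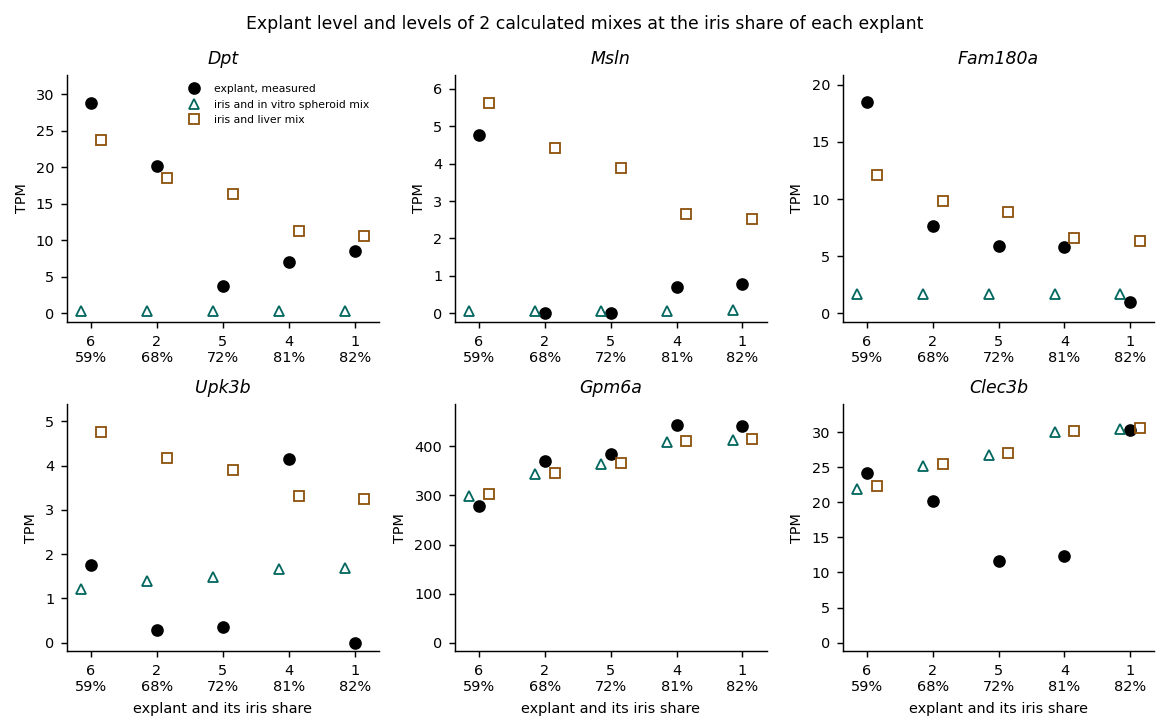
TPM of each gene in explants ordered by iris share (the percentage under each explant number), with filled circles for the measured level, triangles for a mix of mean iris and mean in vitro spheroid at that share and squares for a mix of mean iris and mean liver. *Dpt* lies above the triangles in all 5 explants and *Gpm6a* is close to both mixes, while *Clec3b* in explants 4 and 5 is far below both mixes.

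When the share of the mean iris level was subtracted and the rest divided by the share that is not iris, *Dpt* in the 5 explants was at 44.9 ± 22.8 TPM (SD, lowest 12.1, highest 69.7), a range that overlaps with the livers. *Fam180a* was at 20.3 ± 15.2 TPM and *Msln* at 3.71 ± 4.68 TPM. *Upk3b* was at 2.89 ± 5.73 TPM, with 0 in 3 explants. *Gpm6a* came to 103 ± 73.9 TPM, between 0 in explant 6 and 186 in explant 4, from differences of −18.7 to 35.4 TPM between an explant and its share of iris. With the share taken from genes specific to iris it came to 90.5 ± 64.5 TPM, with 0 in explant 5 and 65.5 in explant 6. Which explants exceed their iris part in *Gpm6a* thus depends on the share. The 3 irises alone ranged from 482 to 529 TPM. In the deposited table *Gpm6a* of explant 4 stands at 0, where this formula gives 186, because that column had the whole mean iris level subtracted.

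The explants differed among themselves in more than iris share. Explant 6, with the lowest share, was the highest in *Dpt*, *Fam180a* and *Msln*, and also in the sum of the Kupffer cell list, with 370 TPM beside 92.8 TPM in the lowest explant. *Adgre1* and *Csf1r*, which macrophages of many tissues express, gave 153 and 154 TPM of that sum in explant 6. The rest of the list there was *Vsig4* at 39.6 TPM, *Cd5l* at 11.5, *Timd4* at 6.38, *Marco* at 2.98 and *Clec4f* at 2.32. Explant 4 was the highest in *Upk3b* (30 of 48 explant counts). It was also the highest in *Upk1b*, at 201 TPM beside 7.75 to 32.4 in the other explants, and in the corneal epithelium genes *Krt12* (577 TPM beside 6.76 to 134) and *Aldh3a1* (541 TPM beside 26.5 to 156). The cornea list of 4 genes summed to 36.05 to 1120 TPM in explants, with *Kera* at 0 in 4 of the 5, and to 58.2 to 245 TPM in irises. Its part in the *Upk3b* level of explants was not tested. In the livers, where *Upk3b* was highest, the cornea list summed to 4.64 to 8.30 TPM.

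The genes whose levels went most alike over the 16 samples were found by Pearson's r of log2(TPM + 1) among 23121 genes with a mean of at least 1 TPM in some group. These samples share tissues and depth, so that r is a description. For *Dpt* they were *Hsf2bp* (r = 0.94), *Nkg7* (0.91), a granule gene of cytotoxic lymphocytes, and *Plac8* (0.91). For *Fam180a* they were the blood group gene *Art4* (0.92), *Adamtsl2* (0.91), a matrix protein, and *Gdf10* (0.89), a ligand of the TGF-β family, at 15.3, 12.3 and 15.4 TPM in livers and at most 0.598 TPM in hepatocyte preparations. *Msln* went with the immunoglobulin segments *Ighv2-5* (0.95) and *Iglc1* (0.93) and with *Rpl31-ps23* (0.92), and *Upk3b* with *A230001M10Rik* (0.88), *Igkv2-109* (0.85) and *Igkv12-41* (0.82). Reads of immunoglobulin segments and of a pseudogene may be split among near-identical copies, so these are uncertain.

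*Gpm6a* went with *Gpm6b* (0.998), its paralog, *Jam2* (0.998), a junctional adhesion molecule, and *Ddr2* (0.997), a collagen receptor, all at 72.3 to 99.4 TPM in irises. *Clec3b* was nearest to *Kctd4* (0.99), *D730003I15Rik* (0.99) and *Sobp* (0.99), and its r with *Gpm6a* was 0.97. Among the 6 genes, *Dpt* and *Fam180a* were the closest pair apart from these (0.87), and r between *Clec3b* or *Gpm6a* and the other 4 was between −0.20 and 0.21. The set thus held 4 genes with their highest mean in liver and 2 with their highest mean in iris.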

How the data were processed

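Bulk RNA of 16 samples was sequenced by Smart-seq3 as 48 technical libraries, 3 per sample. The authors aligned reads to mm10 with TopHat2, removed duplicates, and counted reads per gene with featureCounts v1.4.6-p5 (per the file headers, exons of a GENCODE annotation with ERCC controls, every overlapping gene counted, no strand option). The deposited counts per sample equal the sum of its 3 libraries. The deposited TPM were calculated by the authors from these counts and the exonic lengths. The deposited explant values after subtraction of iris are treated as a score, since the column of explant 4 was made by another formula (explant level minus the whole mean iris level plus the share, divided by 1 minus the share). With that formula for explant 4 and the share of iris subtracted for the others, the solved shares returned 100% of the values above 0 of genes over 50 TPM in iris, within a relative tolerance of 0.001.

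Counts were tested across all genes with edgeR 4.0.16 (filterByExpr, TMM, quasi-likelihood) in R 4.3.3, adjusted by Benjamini-Hochberg. Alternatives were DESeq2 1.42.0, limma-voom (limma 3.58.1), other size factors, no filter, a fit of all 5 groups, technical library a alone, no fold change limit, a replicate block and each sample left out. Intervals are exact (95%) from pooled counts, and the floor is 3 counts over a group. Scripts were tested on simulated data. Promoter windows are from RefSeq. Python 3.11.15, numpy 2.4.6, pandas 2.3.3, scipy 1.17.1 and matplotlib 3.10.9 were used.

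The 6 genes and the 12 marker lists were chosen with earlier results of these data known. Named genes are the 6, at most 4 called genes with the largest change per list and comparison, and the 3 nearest genes to each of the 6. List genes shown with levels beside explant 4 or in the description of a list sum were chosen after their values were seen. *Muc16* of the mesothelium list was not analysed here.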

Additional observations from a re-analysis of the deposited data

Results flagged for a closer look

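In the 5 explants, the level of *Msln* in explant 6 (4.75 TPM, 21 counts) stood far from the others, which had 0 to 0.773 TPM. The gap to the nearest explant was 0.837 of the whole range, above Dixon's 95% limit for 5 samples. The same check was made for 6 genes in the explants and marked 1. Chance alone marks about 1 group in 20 if values are normally distributed. Levels of *Msln* near 0 are not, so that this rate may be too low here. The counts were 9, 7 and 5 in the 3 technical libraries of explant 6.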

How the results depend on the processing

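Among the 6 genes, the direction of every log2 fold change in explants versus irises and explants versus in vitro spheroids was kept in all alternatives that gave a value. In explants versus irises, the 1 gene called higher became 2 with DESeq2, 0 with limma-voom, 0 with technical library a alone, and 0 to 2 with a sample left out. In explants versus in vitro spheroids 2 to 4 were called with a sample left out. Of the 3 lists of mesothelium and fibroblasts, 1 gene was higher and 0 lower in explants than in irises. The numbers were 5 and 3 without the fold change limit, 2 and 1 with library a, 0 higher with limma-voom, and 1 lower by library size alone. With a sample left out, 0 to 4 were higher and 0 to 1 lower. In explants versus in vitro spheroids, 1 list gene was lower, 2 with DESeq2, RLE size factors or no fold change limit, 0 by library size alone, and 0 to 2 with a sample left out. Between hepatocyte preparations and livers, 8 were lower, 18 without the filter, 17 in a fit of all 5 groups, 3 with library a, 0 with limma-voom, and 0 to 7 with a sample left out. Between in vitro spheroids and hepatocyte preparations, 5 were higher (3 to 7 with a sample left out) and 0 lower, 1 without the filter or in a fit of all 5 groups. Apart from settings that leave out samples, libraries or genes, the cause was not tested.

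Over all genes, scaling by library size alone moved the median log2 fold change by 0.43 in explants versus in vitro spheroids (6684 called higher and 1415 lower, beside 5192 and 2642), by 0.26 in in vitro spheroids versus hepatocyte preparations (1531 and 808, beside 996 and 1116) and by −0.11 in hepatocyte preparations versus livers. Limma-voom called 541 genes higher in explants than in irises, beside 1032. Between hepatocyte preparations and livers, 9 were higher and 11 lower with limma-voom, 117 and 530 with DESeq2, 191 and 1014 without the filter and 217 and 923 in a fit of all 5 groups, beside 50 and 283.

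The labels do not say whether samples that share a number are paired, and the tests treat them as unpaired. The correlation of the deviations of same-numbered samples was −0.053 in explants versus irises and 0.104 in explants versus in vitro spheroids. It was 0.141 in in vitro spheroids versus hepatocyte preparations, and −0.043 to 0.108 in hepatocyte preparations versus livers. With 2 samples per group, or 3 in the last comparison, these values cannot exclude a pairing. With a replicate block on samples 1 and 2, 2 list genes were higher in explants than in irises. Depth limits *Msln*, *Upk3b* and the low groups of *Dpt*, which rest on a few counts per sample.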
